A study of Mus musculus with 6 samples.

Results

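The genes described here are Atf4 and 9 genes that its protein is known to switch on when cells lack amino acids or meet other stress, namely Ddit3, Trib3, Chac1, Asns, Sesn2, Atf3, Psat1, Phgdh and Slc7a11. They were taken as every non-control probe that carries 1 of these 10 names on the arrays, which gave 18 probes of 56605, and 10 genes of the 27195 with a name. The samples were labelled as bone marrow stromal cells, a name for the adherent non-blood cells of marrow from which osteoblasts and adipocytes arise. Macrophage markers were also well above background on every array, as given further on, so the RNA was not of such cells alone. Cells from crushed and digested femurs were sorted for surface Sca-1 and CD29 without CD45 or CD11b, then cultured to a passage before RNA was taken. A group of 3 samples came from wild-type (WT) mice and a group of 3 from mice without the long non-coding RNA gene NONMMUT002667 (KO), all labelled male and all untreated as far as the labels say. The labels give no age or strain, do not say whether the knockout was limited to a cell type, and do not say how many animals a sample held, so each p-value reflects only how much these 6 samples vary, which may be technical. The question of the comparison was how the loss of this RNA alters gene expression in these cells.

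ATF4 is a transcription factor of the integrated stress response. Kinases that sense amino acid shortage, unfolded protein, viral RNA or lack of haem phosphorylate the initiation factor eIF2, which slows most translation but allows ATF4 to be translated, so that ATF4 activity is set largely at the protein level. ATF4 then binds C/EBP-ATF response elements with partner proteins and switches on genes for amino acid synthesis, uptake and tRNA charging, and, when stress lasts, feedback and cell death genes. In bone, ATF4 is also known as a factor of osteoblasts, where it acts on the osteocalcin gene and helps supply amino acids for collagen synthesis.

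The response element has the core TGATGNAA. It was searched on both strands of RefSeq promoter windows (GRCm38.p6) that run from 250 bases before to 50 bases after each gene's start. All 10 genes had a window, and 5 held a match, against 3.97% of the 32851 windows of 300 bases in the table. The windows of Atf4, Ddit3, Sesn2, Psat1 and Phgdh held none, which says only that these letters are not in this stretch. The 5 genes with a match are shown as 30 bases, 5′ to 3′ on the gene's strand, because they are the regulatory letters by which ATF4 is known to reach its targets. Capitals mark the match, read as TGATGNAA or as its reverse complement.
Atf3, chr1:191183425-191183454, minus strand: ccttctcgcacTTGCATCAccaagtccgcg
Chac1, chr2:119351038-119351067, plus strand: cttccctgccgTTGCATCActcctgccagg
Trib3, chr2:152344028-152344057, minus strand: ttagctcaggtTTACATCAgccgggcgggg
Slc7a11, chr3:50443651-50443680, minus strand: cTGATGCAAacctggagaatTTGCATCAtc
Asns, chr6:7693214-7693243, minus strand: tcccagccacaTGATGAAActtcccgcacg
Counted from the annotated start, the first base of the match lay at -110 in Atf3, -193 in Chac1 and -23 in Asns. In Trib3 it lay at 15, past the start. Slc7a11 had 2 matches in opposite orientation, at -66 and -47. Of the other listed genes with a window, described further on, a match was present in 5 of 8 tRNA synthetases, 5 of 11 other ATF4 partners and targets, 3 of 10 amino acid and 1-carbon enzymes, 1 of 5 amino acid transporters and 1 of 4 genes tied to ATF4 in osteoblasts. There was none in 7 genes of the eIF2 kinases and phosphatase, 4 NRF2 targets, or 6 genes for endoplasmic reticulum (ER) chaperones and the other arms of the unfolded protein response.

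Each signal is the log2 of the processed signal relative to its array's 75th percentile, so 0 is a bright probe and a step of 1 is a doubling. A probe's level depends on its sequence as well as on RNA, so levels are compared between arrays and not between probes. Of the non-control spots, 54.3% to 56.7% on WT arrays and 49.0% to 53.02% on KO arrays were well above background, the scanner software's call that a spot was brighter than its surroundings. All 6 arrays lay on 1 slide and were scanned together. Their position codes on the slide begin with 1 for every WT array and with 2 for every KO array, so this position and the genotype cannot be told apart. The knocked-out RNA had no probe under its name, so the genotype labels were not checked on the target. Xist, the RNA of the inactive X chromosome of females, gave clear signal in WT replicate 3 (-0.53) and KO replicate 1 (-0.36) and lay between -6.84 and -5.86 in the others, which goes against the male label of those samples, and results are therefore also given without these 2 arrays. The description field and extraction protocol in the labels speak of human blood, and the titles, source names and organism field were followed instead. Of the sort markers, Ly6a (Sca-1) and Itgb1 (CD29) were well above background on all 6 arrays, and so were Ptprc (CD45) and Itgam (CD11b), which the sort should have removed. By their brightest probes, the osteoblast markers differed between the groups. All 8 (Bglap, Ibsp, Sp7, Runx2, Alpl, Col1a1, Dmp1 and Phex) had KO values wholly below the WT values, against 10.4% of all genes. The log2 of their summed signals was 8.49 to 8.64 in WT and 7.12 to 7.85 in KO. Col1a1, the brightest of them, alone read 8.07 to 8.20 in WT and 6.70 to 7.56 in KO. Over all tested probes, the log2 difference (KO minus WT) ranged from -1.24 to 0.07 for Runx2 and from -0.90 to -0.14 for Col1a1. In these bulk samples, fewer cells of a type and less RNA per cell cannot be told apart.

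Trib3, Chac1 and Ddit3, the feedback and death genes of the pathway, had the largest differences among the 10 genes, at 1.81-fold, 1.64-fold and 1.59-fold lower in KO. Asns was 1.27-fold lower, and in these 4 genes every KO array lay below every WT array. Psat1 and Phgdh of serine synthesis differed by less than the spread between replicates, and Atf3 was the 1 gene with a higher mean in KO. None of the 10 passed the test over all genes (limma with Benjamini-Hochberg adjustment over all probes, threshold 0.05; smallest adjusted p = 0.0918, for Trib3), where 12 of 15371 genes or 0.0781% passed, 0.0651% lower and 0.0130% higher in KO. At an unadjusted limma p under 0.05, 4 of the 10 were lower and 0 higher, against 8.03% of all genes lower and 6.94% higher. KO values lay wholly below WT values in 4 of the 10, against 10.4% of all genes, and wholly above in 0, against 12.0%. The median log2 difference of the 10 was -0.23, against 0.02 for all genes tested, and 9 of the 10 differences were negative, against 44.2% of all genes. That median was -0.20 without the 2 arrays with Xist signal, -0.11 without WT replicate 3, -0.13 without KO replicate 2 and -0.36 without WT replicate 1.

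**Figure D1:**
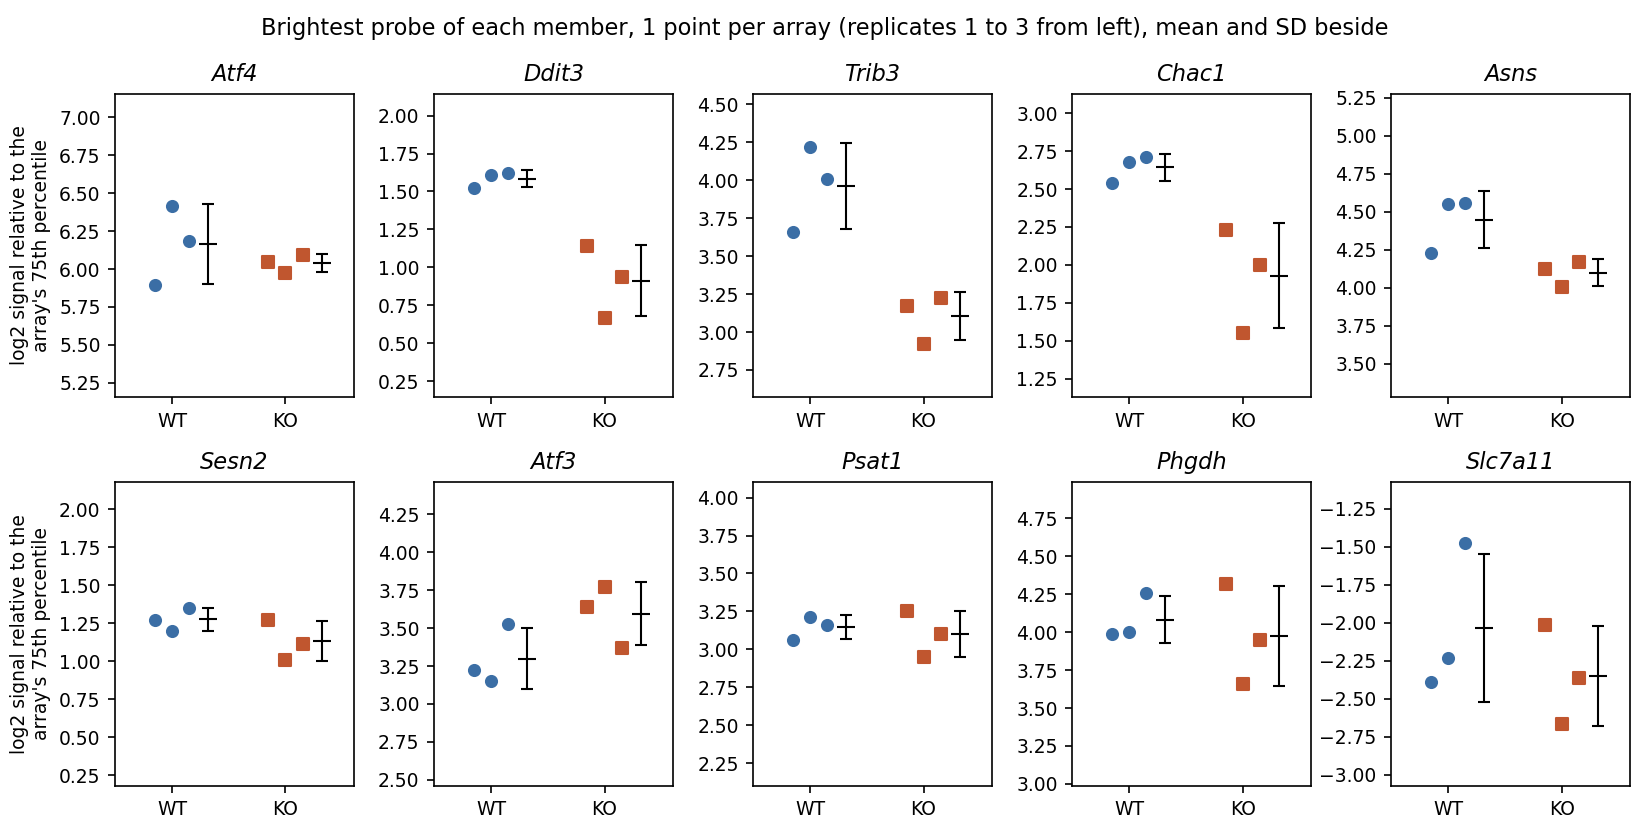
Log2 signal relative to the array's 75th percentile for the brightest probe of each of the 10 genes, with WT arrays as circles, KO arrays as squares, and mean and SD (n = 3) beside each group. Every panel spans 2 log2 units, and the KO points lie wholly below the WT points for Ddit3, Trib3, Chac1 and Asns.

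Atf4 itself has 2 probes, both well above background on all 6 arrays. The brighter one (chromosome 15, 80087902 to 80087961, mm9; from base 1655 of the transcript) read 5.89, 6.42 and 6.18 in WT replicates 1 to 3 and 6.04, 5.97 and 6.09 in KO replicates 1 to 3. The KO values lay within the WT range, with a log2 difference of -0.13 (SE 0.14, 95% interval -0.46 to 0.20; limma adjusted p = 0.716). The second probe (80087079 to 80087138; from base 832) read 2.19, 2.25 and 2.22 in WT and 2.09, 1.84 and 1.86 in KO. Here every KO value was below every WT value, by a small amount (log2 difference -0.29, SE 0.09, 95% interval -0.51 to -0.07; limma adjusted p = 0.223). The first 30 of the 60 bases of both probes are shown because their readings differ.
Atf4, brighter probe: ggtgctttgtgcttgtacatagtcttgtgt
Atf4, second probe: ggacagattggatgttggagaaaatggatc
Trib3 had a log2 difference of -0.86 (95% interval -1.24 to -0.47), and whether the difference of Atf4 departs from it was not tested.

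Among the feedback and death genes, Trib3 encodes a pseudokinase that binds ATF4 and damps it. Its only probe (chromosome 2, 152163161 to 152163220, mm9) read 3.66, 4.22 and 4.01 in WT and 3.17, 2.92 and 3.22 in KO. The groups did not overlap, and the log2 difference was -0.86 (SE 0.16, 95% interval -1.24 to -0.47; limma adjusted p = 0.0918). Chac1 encodes an enzyme that degrades glutathione and is among the most ATF4-dependent stress genes. It read 2.54, 2.68 and 2.71 in WT and 2.23, 1.55 and 2.00 in KO (chromosome 2, 119179990 to 119180049). Its KO values were all lower and spread further apart than the WT values, with KO replicate 2 the lowest (log2 difference -0.72, SE 0.17, 95% interval -1.13 to -0.30; limma adjusted p = 0.138). Without the 2 arrays with Xist signal, the differences were -0.87 for Trib3, -0.83 for Chac1 and -0.77 for Ddit3 (limma adjusted p = 0.282, 0.228 and 0.182).

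Ddit3 encodes CHOP, a transcription factor that pushes cells towards death when stress lasts, and its 2 probes disagreed. The brighter probe spans 304 bases of chromosome 10 (126732518 to 126732821, mm9), more than its own 60 bases, so it crosses a splice junction. It read 1.52, 1.61 and 1.62 in WT and 1.14, 0.67 and 0.93 in KO. The groups were well apart relative to their spread (log2 difference -0.67, SE 0.13, 95% interval -0.98 to -0.37; limma adjusted p = 0.0927). The dimmer probe (126731579 to 126731638) was designed on another Ddit3 transcript model, lay upstream of the first, and read -0.53, -0.50 and -0.28 in WT and -0.38, -0.52 and -0.46 in KO. The groups overlapped there (log2 difference -0.02, SE 0.10, 95% interval -0.25 to 0.21). Averaged over both probes, the log2 difference was -0.35 (limma adjusted p = 0.182). The first 30 bases of each probe show that they target different sequence.
Ddit3, junction probe: ccccaggaaacgaagaggaagaatcaaaaa
Ddit3, probe of the other model: accaggaacacacacacagcacacattcag

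Atf3 encodes a stress-induced factor of the same family that is also switched on by routes other than ATF4. It read 3.22, 3.15 and 3.53 in WT and 3.64, 3.77 and 3.37 in KO (chromosome 1, 192994547 to 192994606). The groups overlapped, through KO replicate 3 and WT replicate 3 (log2 difference 0.29, SE 0.14, 95% interval -0.05 to 0.64; limma adjusted p = 0.394). Sesn2 encodes sestrin 2, a leucine sensor that restrains mTORC1. It read 1.27, 1.20 and 1.35 in WT and 1.27, 1.01 and 1.11 in KO, with overlapping groups (chromosome 4, 132048858 to 132048917; log2 difference -0.14, SE 0.09, 95% interval -0.37 to 0.08; limma adjusted p = 0.531).

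Asns encodes asparagine synthetase and carries the match TGATGAAA near its start. Its brighter probe (chromosome 6, 7625171 to 7625228) read 4.23, 4.55 and 4.56 in WT and 4.13, 4.00 and 4.17 in KO, and its second probe (7626110 to 7626255) read 1.23, 1.33 and 1.46 in WT and 1.10, 0.79 and 0.87 in KO. With either probe, KO lay below WT on all arrays. The log2 differences were -0.35 (SE 0.11; limma adjusted p = 0.231) and -0.42 (SE 0.11; limma adjusted p = 0.159). For Asns the 2 probes therefore gave like differences, unlike those of Ddit3.

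Phgdh and Psat1 encode the first and second enzymes of serine synthesis. Phgdh read 3.99, 4.00 and 4.26 in WT and 4.32, 3.66 and 3.95 in KO (chromosome 3, 98117098 to 98117157). Its KO arrays lay on both sides of the WT arrays (log2 difference -0.11, SE 0.18, 95% interval -0.53 to 0.31; limma adjusted p = 0.827). The brightest Psat1 probe read 3.06, 3.22 and 3.16 in WT and 3.25, 2.95 and 3.10 in KO (chromosome 19, 15979622 to 15979681; log2 difference -0.04, SE 0.10, 95% interval -0.28 to 0.19; limma adjusted p = 0.879). A second Psat1 probe had a difference of -0.03 (SE 0.23), and the third stayed below the background call on all 6 arrays. Both of these genes had means that differed by less than the SD of the KO arrays, and without KO replicate 2 their differences were 0.051 for Phgdh and 0.030 for Psat1. Psph, the third enzyme of serine synthesis, named after its values were seen, differed by -0.36 on the log2 scale (SE 0.12; limma adjusted p = 0.221).

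Slc7a11 encodes xCT, the cystine importer, and is a target of NRF2 as well as of ATF4. Its brighter probe (chromosome 3, 50176047 to 50176106) read -2.39, -2.23 and -1.48 in WT and -2.01, -2.67 and -2.37 in KO. The groups overlapped and WT replicate 3, an array with Xist signal, was the highest (log2 difference -0.32, SE 0.27, 95% interval -0.96 to 0.33; limma adjusted p = 0.634). A second probe (50169700 to 50169759) was well above background on all 3 WT arrays and on 0 KO arrays. It read -4.13, -3.82 and -3.27 in WT and -4.16, -4.76 and -4.55 in KO, and was tested only because of its WT signal, so a lower KO value was built in and no fold is given (limma adjusted p = 0.233). The other 2 Slc7a11 probes were not well above background on any array.

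**Figure D2:**
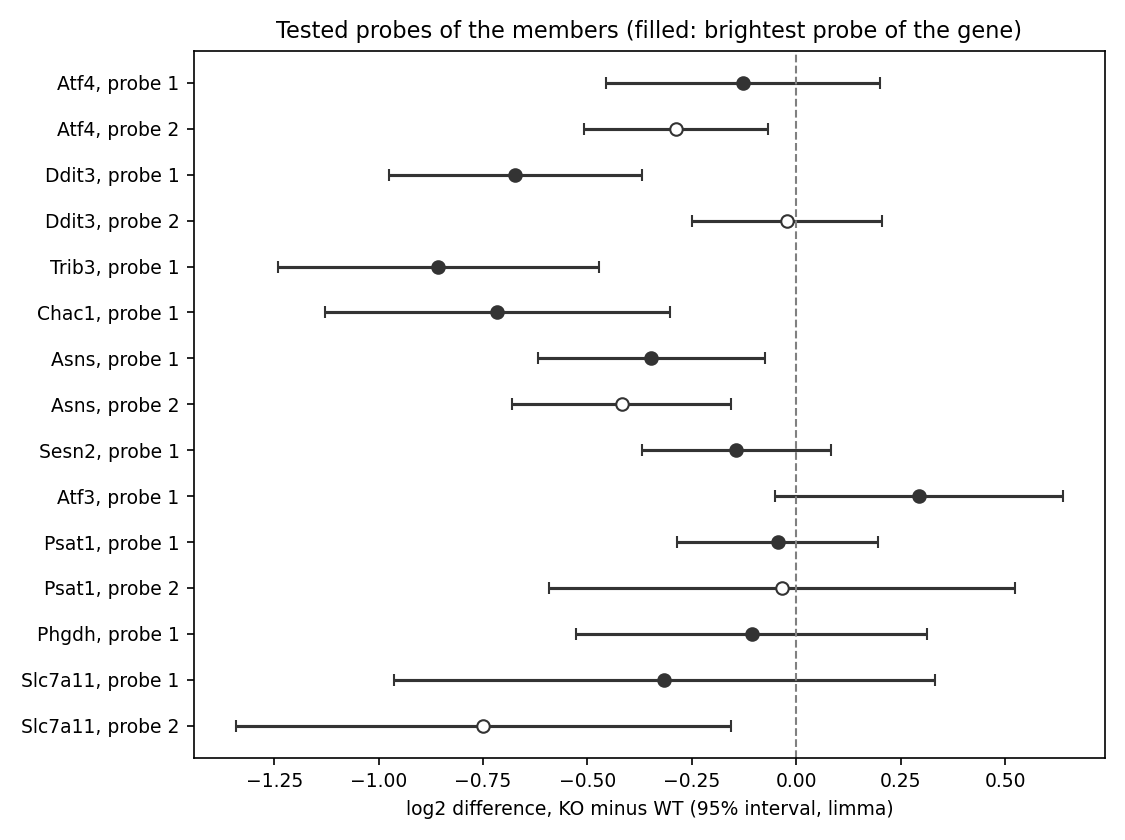
Log2 difference (KO minus WT) with its 95% limma interval for the 15 tested probes of the 10 genes, numbered by brightness, with the brightest probe of each gene filled. The probes of Ddit3 disagree (-0.67 and -0.02), those of Asns do not (-0.35 and -0.42), and the interval of Atf3 alone has its centre above 0.

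The members varied together across arrays only in part. KO replicate 2 was the lowest of the 6 arrays in 8 of the 10 genes, while for Atf3 it was the highest. How often that array was the lowest over all genes was not counted, so the 8 are not read as a trait of the members. For each gene, the nearest other member was found by the mean absolute distance between their log2 values over the 6 arrays, after centring each gene on its own mean. Ddit3 and Chac1 were nearest to each other, at a distance of 0.057, and Ddit3 was nearest to Trib3 at 0.144. Atf4 was nearest to Psat1 at 0.111, and over all genes tested its nearest were Snx7, Snrpd3 and Lrig3 at 0.0397, 0.0409 and 0.0415. These distances come from 6 arrays and favour genes that vary little.

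Outside the 10 genes, the pathway was described with lists of its other parts. Over 5 lists (eIF2 kinases and phosphatase, amino acid and 1-carbon enzymes, amino acid transporters, tRNA synthetases, and other partners and targets), 0 of 52 tested genes passed limma over all genes in either direction. At an unadjusted p under 0.05, 18 were lower in KO and 1 higher, and in 21 KO lay wholly below WT, against 0 wholly above. Over all genes tested, 8.03% were lower and 6.94% higher at that p, 10.4% lay wholly below and 12.0% wholly above. The median log2 difference of the 52 was -0.17.

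Of the 9 genes for the eIF2 kinases, eIF2 itself, its phosphatase and their regulators, 0 had an unadjusted limma p under 0.05. Over all genes, 8.03% were lower and 6.94% higher at that p, and a list this short can show 0 at such shares. The median of the 9 was 0.04. Eif2ak3, which encodes the ER stress kinase PERK, differed by -0.14 on the log2 scale (SE 0.09). Eif2ak1, the haem-regulated kinase, had 0.20 (SE 0.11), and Eif2ak2, the kinase PKR of viral RNA, 0.12 (SE 0.13). Ppp1r15a encodes GADD34, the stress-induced subunit that lets eIF2 be dephosphorylated and itself an ATF4 target, and had -0.29 (SE 0.15; limma adjusted p = 0.412, the smallest of the 9).

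Of the genes for amino acid and 1-carbon enzymes, 11 of 12 had negative differences by their brightest probes, against 44.2% of all genes. In 8 of the 12, KO lay wholly below WT, against 10.4%. The median of the 12 was -0.35. Aldh1l2, a mitochondrial folate enzyme, read 1.73, 2.22 and 1.88 in WT and 1.17, 0.94 and 1.32 in KO (log2 difference -0.80, SE 0.16; limma adjusted p = 0.0949). Pycr1, which makes proline, read -0.73, -0.82 and -0.82 in WT and -1.23, -1.81 and -1.65 in KO (-0.77, SE 0.15; limma adjusted p = 0.0949). Cth, which makes cysteine from cystathionine, was lower by 0.74 on the log2 scale, and Pck2, the mitochondrial phosphoenolpyruvate carboxykinase, by 0.39 (limma adjusted p = 0.109 and 0.137). The several tested probes of Aldh1l2, Pycr1 and Pck2 had like differences. Those of Bcat1 and Gpt2, named after their values were seen, ranged from -0.82 to 0.055 and from -0.29 to -0.07. Cbs, the enzyme before Cth, also named after its values were seen, was the exception among the brightest probes. It read -3.92, -3.96 and -4.27 in WT and -3.93, -1.94 and -1.98 in KO (1.44, SE 0.52; limma adjusted p = 0.267). Its KO arrays fell apart into 2 high values and, in KO replicate 1, a value like WT. That value and the WT values lay near the lowest signals called above background (-4.62 to -4.41 in WT, -4.15 in KO replicate 1). Without KO replicate 1 Cbs passed (2.09, limma adjusted p = 0.0457). The array left out held the discordant value, so this pass gives no further support for a difference.

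Of the 8 amino acid transporter genes, 3 had an unadjusted limma p under 0.05, all lower in KO, against 8.03% of all genes lower and 6.94% higher. Slc7a3, a cationic amino acid transporter, read -0.17, 0.70 and 0.56 in WT and -0.73, -1.61 and -0.76 in KO, or 2.63-fold lower (limma adjusted p = 0.123). Slc6a9, the glycine transporter GLYT1, read 3.30, 3.56 and 3.45 in WT and 2.94, 2.29 and 2.78 in KO, or 1.70-fold lower (limma adjusted p = 0.127). Slc7a1, the arginine and lysine transporter CAT1, had a log2 difference of -0.27, and Slc38a2, the neutral amino acid transporter SNAT2, -0.16 by 1 probe and 0.07 by the other. By their brightest probes, all 12 tRNA synthetase genes, which charge tRNAs with amino acids, had negative differences, against 44.2% of all genes. These were of small size, from -0.27 to -0.04 with a median of -0.18. The highest of the tested probes was above 0 for Cars (0.034) and Yars (0.028). Eprs, for glutamate and proline, had the smallest p (-0.27, SE 0.07; limma adjusted p = 0.176), though its 5 probes also reached above 0, from -0.27 to 0.12. Iars, Nars and Aars had -0.18, -0.18 and -0.19.

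Among other partners and targets, 9 of 11 differences were negative by the brightest probes, against 44.2% of all genes, and the median was -0.28. Nupr1, a stress-induced chromatin protein, was 2.48-fold lower by its brighter probe, with 5.70, 6.14 and 5.82 in WT and 4.79, 4.11 and 4.84 in KO (limma adjusted p = 0.0823), while its other probe had a log2 difference of 0.27. Vldlr, a lipoprotein receptor, read 2.18, 2.74 and 2.25 in WT and 1.45, 1.62 and 1.68 in KO, or 1.75-fold lower (limma adjusted p = 0.0985). Stc2, the secreted stanniocalcin 2, was 1.81-fold lower (limma adjusted p = 0.121). Adm2, a secreted peptide of the adrenomedullin family, was 2.13-fold lower, with KO replicate 2 far below the other KO arrays (-2.19, -3.60 and -2.33; limma adjusted p = 0.228). Fgf21, a secreted ATF4 target, was not tested because it was well above background on 1 array only.

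**Figure D3:**
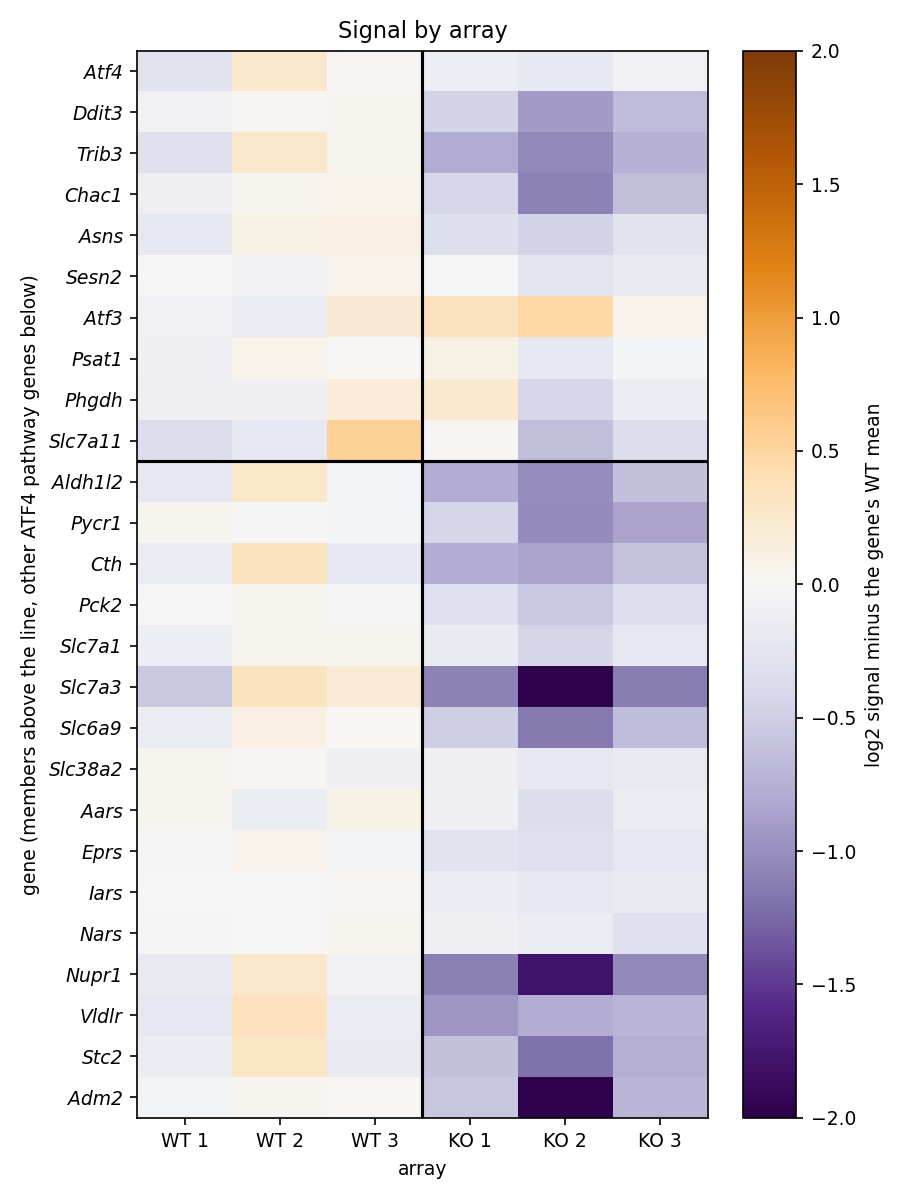
Log2 signal of each array minus the gene's WT mean, with the 10 members above the line and the named ATF4 pathway enzymes, transporters, tRNA synthetases and other targets below it. Trib3, Chac1, Ddit3, Aldh1l2, Pycr1, Slc7a3, Slc6a9, Nupr1, Vldlr, Stc2 and Adm2 are lower on all 3 KO arrays than on any WT array, while Phgdh, Psat1 and Atf3 are not.

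Genes of neighbouring stress pathways were set beside the members. The 7 genes for ER chaperones and the other arms of the unfolded protein response had differences between -0.18 and 0.11 by their brightest probes, and 0 had an unadjusted limma p under 0.05. Hspa5, the main ER chaperone, read 5.98, 6.12 and 6.07 in WT and 6.09, 6.14 and 6.25 in KO, with overlapping groups. Its log2 difference was 0.11 (SE 0.08), and those of Dnajb9, Atf6 and Ern1 were -0.18, 0.11 and -0.12, though the 3 tested probes of Ern1 ranged from -0.74 to -0.059. NRF2 targets, which share Slc7a11 with ATF4, had a median of 0.04, with 0 of 6 at an unadjusted p under 0.05. Over all genes, 8.03% were lower and 6.94% higher at that p, and lists this short can show 0 at such shares. Nqo1, a quinone reductase, had -0.48 (SE 0.29), and Gclm, Srxn1 and Gclc, of glutathione synthesis and thiol repair, had -0.15, 0.07 and 0.05. Whether these lists differ from the members was not tested.

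**Figure D4:**
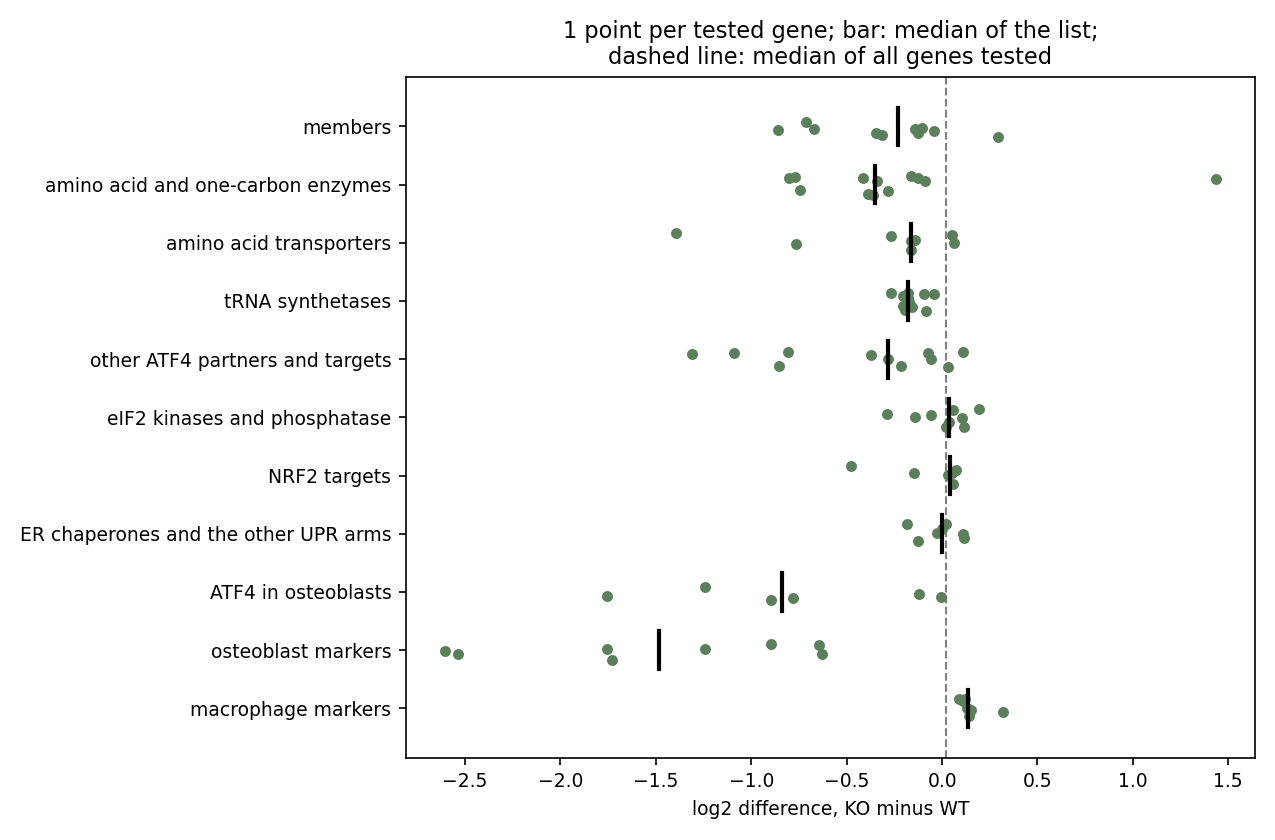
Log2 difference (KO minus WT) of every tested gene in each list, by its brightest probe, with the list's median as a bar and the median of all genes tested (0.02) as a dashed line. The medians are -0.23 for the members, -0.35 for amino acid and one-carbon enzymes, 0.04 for the eIF2 kinases and for NRF2 targets, -1.49 for osteoblast markers and 0.14 for macrophage markers.

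By their brightest probes, genes tied to ATF4 in osteoblasts had a median difference of -0.84 over 6 tested. All 6 were negative, against 44.2% of all genes. Of them 0 passed the threshold and 3 were lower at an unadjusted limma p under 0.05, against 8.03% of all genes. Bglap, the osteocalcin gene on which ATF4 acts, read 4.27, 3.73 and 3.89 in WT and 2.73, 1.34 and 2.54 in KO (log2 difference -1.76, SE 0.37; limma adjusted p = 0.107). Runx2, the osteoblast master factor with which ATF4 cooperates, had -1.24 (SE 0.25; limma adjusted p = 0.101) by its brightest probe and 0.07 by another. Rps6ka3, the kinase RSK2 that phosphorylates ATF4, read 1.83, 2.04 and 1.25 in WT and 0.15, 1.84 and 0.45 in KO, and its 3 probes ranged from -0.90 to 0.29. Tnfsf11, which encodes RANKL, was below the background call on all 6 arrays.

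Cell type markers are given beside these genes. Of the 8 stromal markers, 1 was lower in KO (Col1a1, also an osteoblast marker) and 1 higher (Cxcl12, 0.37) at an unadjusted limma p under 0.05. Over all genes, 8.03% were lower and 6.94% higher at that p. The median of the stromal markers was -0.11, and 0 of them passed the threshold. The 8 osteoblast markers had a median of -1.49, and 1 of them passed (Ibsp, -1.73, limma adjusted p = 0.0496). KO replicate 2, the lowest array for most members, was also the lowest for Bglap (1.34), Runx2 (-2.19), Ibsp (3.31), Sp7, Col1a1, Dmp1 and Phex. Alpl was lowest in KO replicate 1 (3.83, against 4.17 in KO replicate 2). The share of all genes with KO replicate 2 lowest was not counted. By their brightest probes, all 8 macrophage markers were well above background on all 6 arrays, with differences from 0.09 to 0.32. The log2 of their summed signals was 10.18 to 10.22 in WT and 10.29 to 10.39 in KO. Dimmer probes of Csf1r, Lyz2 and Adgre1 went the other way, at -0.30, -0.16 and -0.08, and the other macrophage markers had no tested probe below 0. On the same scale, sums over tested genes only were 3.01 to 3.23 in WT and 2.94 to 3.90 in KO for 5 neutrophil markers. They were -0.38 to 0.23 and -0.28 to 0.04 for 3 endothelial markers, and -1.87 to -0.89 and -1.89 to -1.62 for 2 erythroid markers. These sums cover unlike numbers of probes, so they are compared between arrays and not between lists. Of 6 lymphocyte markers only Cd3e was tested, and Cd79a and Ms4a1 were not well above background on all arrays of either group. The part of these cell types in the members' differences was not tested.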

How the data were processed

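RNA of 3 WT and 3 KO samples was hybridised with 1 colour (Cy3) to 1 array each. Spot intensity was background-subtracted and detrended by Agilent Feature Extraction 10.7.1.1 per the file headers (9.1 per the submitters' processing notes), and probe positions are in mm9. Values of the deposited series table are log2, with a median of 6.16 in every column, and correlated with the log2 processed signals at r of 0.9997 or more. Its scale and direction follow from this, and further steps are not given in the sources used here.

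Flagged spots (49 to 131 per array) were left out and spots of a probe averaged. Tested probes were those called above background in all 3 arrays of WT, of KO or of both (28607 probes, 15371 genes). Differences were tested two-sided with limma 3.58.1 in R 4.3.3 (lmFit and eBayes, group as the only term, Benjamini-Hochberg over all probes). A gene was read by its brightest tested probe. The number of arrays limits the precision. The fit was tested on simulated data. The members and lists were chosen with earlier results of these data known. Named genes were all members, and per list up to 4 of smallest p. Alternatives covered scaling, background correction, filters, probes, the replicate number, Xist signal and each array left out. Probes of other genes are not analysed here.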

Additional observations from a re-analysis of the deposited data

How the results depend on the processing

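Over 16 alternatives, 8 of the 10 members kept the sign of their difference; the exceptions were Phgdh and Psat1, which turned without KO replicate 2. With single arrays left out, Phgdh ranged from -0.28 to 0.051 and Psat1 from -0.12 to 0.030. Over all 16 alternatives, Trib3 ranged from -1.01 to -0.73, Chac1 from -0.87 to -0.53 and Asns from -0.46 to -0.29. Ddit3 ranged from -0.78 to -0.55 with single arrays left out, and was -0.35 where its 2 disagreeing probes were averaged (limma adjusted p = 0.182). The number of members past the threshold was 0, except for 1 (Trib3, limma adjusted p = 0.0497) with an intensity trend in eBayes. Of the other pathway genes 0 passed, against 2 (Nupr1 among them) with normexp and quantile normalization and 2 (Nupr1 among them) with the intensity trend, and 1 (Cbs) without the 2 arrays with Xist signal. With single arrays left out, that number was 0 to 1, the 1 being Cbs without KO replicate 1, the array with its discordant value. Srxn1 turned without WT replicate 1, with a range from -0.043 to 0.20. Over all genes, 12 passed; the number was 62 with median centring, 141 with normexp and quantile normalization, 153 with the intensity trend, 6 where all 6 arrays had to pass the background call, 2 with a gene's probes averaged, 3 without the 2 arrays with Xist signal, and 0 without the filter on dim probes (7810 had an unadjusted p under 0.05) or with Xist signal as a term (2408 at that p). It was 0 to 8 with single arrays left out. The cause of these changes was not tested. The replicate numbers were not taken as pairs, because deviations of same-numbered samples correlated at 0.06, 0.15 and -0.03 over probes. With the replicate number as a block 0 genes passed (2354 at an unadjusted p under 0.05), 0 of them members (4 at that p). The slide could not serve as a block because all 6 arrays lay on 1 slide. Of the 18 member probes, 3 were not above background on any array and gave no test.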
